A study of Cucumis sativus with 33 samples.

Results

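A set of 24 genes of the cucumber corolla, of 23248 in the table, was low in every normal bud, high in the open flower of both ovary types, and already high in super ovaries on day 8, the day before most of those flowers opened. The genes were selected by their group means in RPM, the reads of a gene scaled to the same total in every library. A gene had to reach 10 RPM in the open flowers of both types (N5 and S9), to stay at or under N5/8 in each of the normal buds (N1, N3, N4), at or under S9/4 in the super green bud S1, and to stand at S9/2 or above on super day 8 (S8). Of 11027 genes at 10 RPM or more in both open flowers, 126 met the condition on normal buds and 124 also the one on S1. The 24 members are those of the 124 that met the condition on S8, and the other 100 are called the other flowering genes here. The means of N1, N3, N4, N5, S1, S8 and S9 thus chose the members, and any contrast among these 7 groups is given as values with no test. S3, S4, S5 and S7 were not used in the choice.

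All libraries came from female flowers of Cucumis sativus inbred line 6457, a strongly parthenocarpic line (fruit sets without pollination), and flowers were bagged against pollination. Super ovaries came from plants with ample fertilizer and water on which a single fruit was left to grow, next to the shoot tip, and normal ovaries from plants short of both, with 1 or 2 fruits set elsewhere. Super corollas were taken 1, 3, 4, 5, 7, 8 and 9 days after labeling of the visible ovary (S1 to S9) and normal corollas after 1, 3, 4 and 5 days (N1 to N5). By the study's stages, S1 is a green bud, S3, S4 and S5 are green yellow buds, S7 and S8 are yellow buds and S9 is the open flower, and N1, N3, N4 and N5 are the green, green yellow, yellow and open stages. Each of the 11 groups had 3 libraries, each from a pool of 5 corollas. Feeding, watering and fruit load were changed together, so their parts in any difference between ovary types cannot be told apart. The design text calls the pools biological replicates, but nothing says whether they came from separate plants or harvests, so p-values measure the spread between pools, which may be partly technical.

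The corolla is the whorl of petals around the female flower, and anthesis is its opening. Petals open largely by cell expansion, which draws on water and sugar import and on loosening of the cell wall, while chloroplasts give way to carotenoid-filled plastids and the green bud turns yellow. Hormones such as ethylene, jasmonate and gibberellin are known to set the timing of opening in many species, and open petals go on to make scent before they wilt. None of the 23248 identifiers matched a table of 23999 RefSeq cucumber genes, and the file gives no descriptions, so no member can be placed in these processes. Members are described by their levels, and 5 are named by identifier.

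Library totals recovered from the steps of the values were 16858673 to 24643183 reads, so that 1 read was worth 0.0406 to 0.0593 RPM. Libraries of a group correlated across genes at 0.989 or above except in S7, where replicate 3 reached 0.965 with replicate 1 and 0.977 with replicate 2. The calls and fitted changes of S7 against S5, and the median S7 share of S9, are therefore also given without that library. Since these are bulk samples, fewer cells of a type and less RNA per cell cannot be told apart.

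The members were spread over the table. Their identifiers begin with Csa1G in 5 cases, Csa6G in 5, Csa3G in 4, Csa4G, Csa5G and Csa7G in 3 each and Csa2G in 1. The nearest pair, both beginning with Csa3G, stood 6 rows apart. Whether any member shares reads with a near-identical copy elsewhere in the genome was not tested.

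By the choice, the members were high in open flowers and low in normal buds. In super ovaries the medians over members were 1.92 RPM in S1, 3.13 in S3, 4.86 in S4, 5.90 in S5, 15.1 in S7, 64.6 in S8 and 72.2 in S9. Their S9 means ran from 10.2 to 377 RPM. Their N5 means ran from 11.3 to 525 RPM with a median of 91.1 RPM, and 12 of the 24 reached 100 RPM. In the normal buds N1, N3 and N4 the medians were 2.79, 4.72 and 3.80 RPM. All members together held 2995 ± 99.9 RPM in S9 and 4089 ± 111 RPM in N5 (SD, n = 3 each). On the day before most flowers opened, they together held 2466 ± 250.2 RPM in S8 and 200 ± 15.2 RPM in N4.

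**Figure D1:**
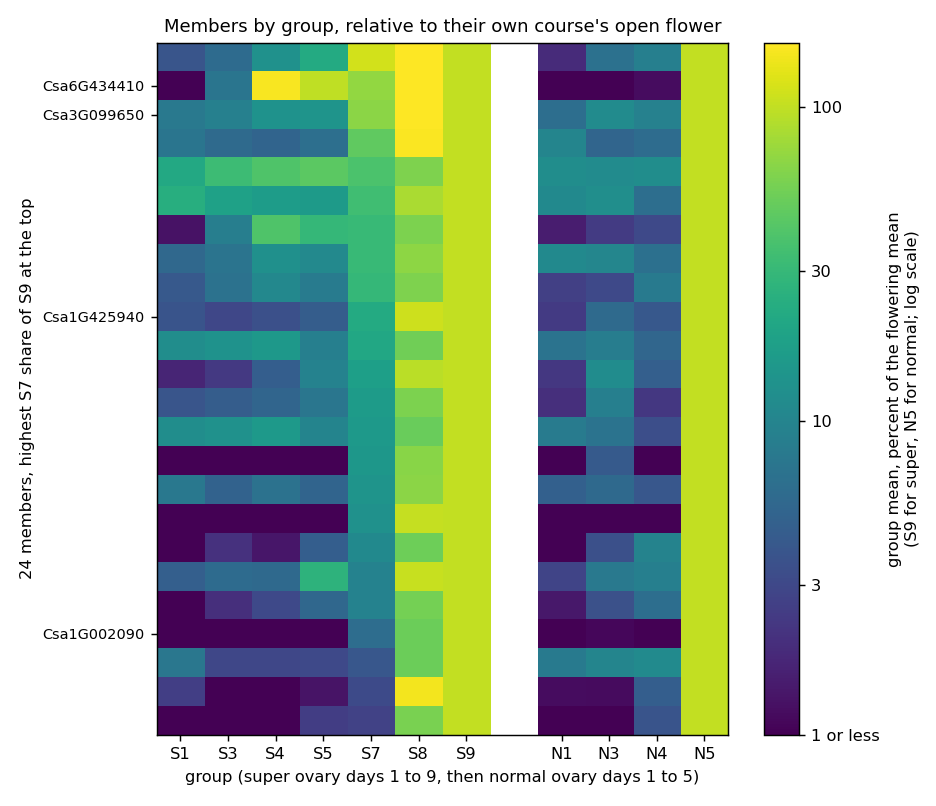
Mean level of each of the 24 members (rows, highest S7 share of S9 at the top) in 11 groups (columns, super then normal), as a percent of the member's mean in the open flower of the same course, on a log color scale where shares of 1% or less have 1 color and the yellow end stands for about 160% or more. The step to a high level lies between S7 and S8 for most rows in super ovaries and between N4 and N5 in normal ones, and Csa6G434410 differs from the rest in being high from S4 on.

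The conditions leave a margin that a few genes fill. The lowest members in S8 stood at 50.5% and 51.1% of S9, and the nearest genes outside stood at 49.35% and 49.25%. In the normal buds, the highest members reached 12.2% and 12.0% of N5, and the nearest genes outside, which met the other conditions, reached 12.85% and 13.3%. The lowest S9 means of members were 10.2 and 13.5 RPM, and the nearest outside were 9.72 and 9.16 RPM.

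In 16 members the highest super mean was in S9 and in 8 it was in S8. The S9 mean was above the S8 mean in 16 of 24 members (66.7%), against 58.1% of all genes tested. The ratio of S9 to S8 ran from 0.553 to 1.98 over the members, with a median of 1.52. In 16 members each S9 library was above each S8 library, and in 3 members each S9 library was below each S8 library. Over all genes tested these shares were 40.6% and 25.5%. Since the condition on S8 sets a limit to this ratio from above, its upper end is part of the choice.

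Csa3G099650 was the most abundant member in S8 and is one of a pair named for the lowest ratios of S9 to S8. It stood at 318, 293 and 310 RPM in S9 and at 533, 580 and 478 RPM in S8, and the libraries of these groups did not overlap. In the open normal flower it had 280, 324 and 348 RPM, a range that holds the S9 values. In earlier super groups its means were 24.04 ± 1.59 RPM in S1, 27.8 ± 2.83 in S3, 40.5 ± 4.54 in S4 and 42.1 ± 7.49 in S5 (SD, n = 3). It had 360, 177 and 71.5 RPM in the S7 libraries. All of these were above the S5 libraries, while they differed among themselves more than the libraries of any other group did. Its means in the normal buds N1, N3 and N4 were 19.9 ± 1.09, 36.6 ± 6.05 and 29.2 ± 4.02 RPM.

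Csa6G434410, the other of that pair, was the member with the lowest N5 mean and the only one at S9/2 or above in S4 and in S5. It stood at 28.6, 71.9 and 47.2 RPM in S9 and at 55.8, 116 and 95.1 RPM in S8, so that the groups overlapped. In earlier super libraries it had 0.05, 0.04 and 0.05 RPM in S1, 1.84, 6.77 and 1.98 in S3, 53.3, 58.2 and 114 in S4, 45.8, 47.9 and 50.8 in S5 and 16.7, 39.95 and 46.7 in S7. In normal buds it was at or near the lowest value of the table, where the N1 libraries had 0.05, 0.05 and 0.23 RPM, the N3 libraries 0.05, 0.09 and 0.06 RPM and the N4 libraries 0.05, 0.05 and 0.3 RPM. Its N5 libraries had 13.4, 11.2 and 9.27 RPM, each below every S9 library. On days 3, 4 and 5 each super library was above each normal library of the same day. As N3, N4 and N5 took part in the choice, no test is given, and the values in normal buds rest on very few reads.

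**Figure D2:**
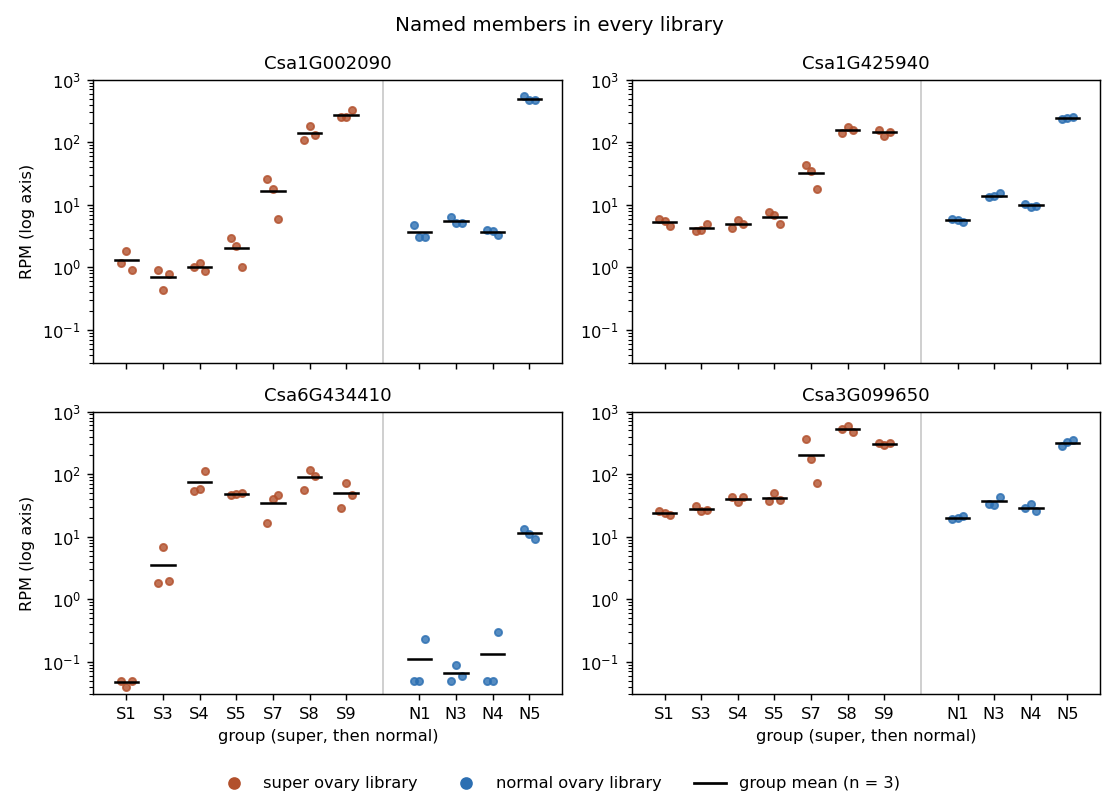
RPM of the 4 named members (log axis) in each of the 33 libraries, super groups left and normal groups right, with points for libraries and black lines for group means. The S7 libraries of Csa3G099650, at 360, 177 and 71.5 RPM, show the wide spread of that group, and Csa6G434410 is at 53.3 RPM or more in every S4 library and at 0.3 RPM or less in every N4 library.

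S7 and S5 took no part in the choice, so the change between them was tested. Of the 24 members, 12 were higher in S7 than in S5, 1 was lower and 11 were not called. A call means an adjusted p under 0.05 by limma over all 18905 genes tested and a change of at least 2-fold in log2(RPM + 1). The added 1 makes the changes of low genes look smaller than they are. Among all genes tested, 3.25% were called higher and 8.64% lower. In 11 members each S7 library was above each S5 library, and in 2 each was below, against 15.6% and 41.6% of all genes tested. These 11 are not all among the 12 called higher. Some members called higher had overlapping libraries, and some with separate libraries were not called. The median change on that log2 scale was 0.98 over the members, 0.34 over the other flowering genes and -0.19 over all genes tested. Because members were chosen to be low in S1 and high in S8, a rise somewhere between those days is fixed by the choice, and this comparison covers only the stretch between days 5 and 7.

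The change between days 5 and 7 ranged from -1.05 to 2.89 over the members on the log2 scale. The largest fitted changes among members at 10 RPM or more in S7 whose S7 and S5 libraries did not overlap belonged to 2 genes, and the member at 2.89 had overlapping libraries. Csa1G002090 stood at 26.3, 18.2 and 5.94 RPM in S7 against 2.95, 2.17 and 1.03 RPM in S5, a log2 change of 2.39 (SE 0.30, limma adjusted p 2e-07). Csa1G425940 stood at 44.0, 34.4 and 17.7 RPM in S7 against 7.6, 6.81 and 4.99 RPM in S5, a log2 change of 2.07 (SE 0.19, limma adjusted p 7.9e-10). In both genes replicate 3 was the lowest S7 library, and still above every S5 library. Csa3G099650 rose as well, with a log2 change of 1.97 (SE 0.29, limma adjusted p 1.6e-06). Without S7 replicate 3 the log2 changes were 2.96 in Csa1G002090, 2.43 in Csa1G425940 and 2.57 in Csa3G099650. These p-values and SEs rest on a spread shared by all 11 groups, while the members varied most in S7. With only S7 and S5 in the fit, the limma adjusted p was 0.011 in Csa1G002090, 0.0036 in Csa1G425940 and 0.023 in Csa3G099650.

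From day 8 on the courses of Csa1G002090 and Csa1G425940 diverged. Csa1G002090 had 253, 252 and 323 RPM in S9 and 107.5, 183.5 and 132 RPM in S8, with no overlap. Csa1G425940 had 158.5, 127 and 147 RPM in S9 and 139, 177 and 156 RPM in S8, where the libraries overlapped. For both, every S9 library was below every N5 library. In N5, Csa1G002090 had 552, 478 and 469 RPM and Csa1G425940 had 236, 241 and 253 RPM. Over N1, N3 and N4 in turn, Csa1G002090 had means of 3.64 ± 1.02, 5.49 ± 0.74 and 3.72 ± 0.34 RPM. Csa1G425940 had 5.72 ± 0.32, 14.1 ± 1.11 and 9.77 ± 0.50 RPM in those groups.

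The single member called lower was Csa6G424530, named because it is alone in that count, after its values were seen. It had 1.13, 0.47 and 2.24 RPM in S7 against 4.86, 3.25 and 2.6 RPM in S5, a log2 change of -1.05 (SE 0.26, limma adjusted p 0.001). The libraries did not overlap, and all 6 were low beside the 15.9, 10.8 and 15.3 RPM of S8. Without S7 replicate 3 the change was -1.34 (limma adjusted p 6.8e-05). It was not called with a pseudocount of 5, without S5 replicate 1 or S7 replicate 2, or when libraries were rescaled so that the median gene about kept its level. Csa6G434410 had a log2 change of -0.59 (SE 0.36, limma adjusted p 0.15) and was not called. Without S7 replicate 3 its change was -0.87 (limma adjusted p 0.048), still under 2-fold.

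The deposited scaling bore on these counts. Rescaled, 15 members were higher and 0 lower by limma (1 had a negative change at an unadjusted p under 0.05, and edgeR called 1 lower), the median gene changed by 0.02 and not -0.19, and the share of rises among all calls was 51.9% and not 27.4%. The background of rises was then 5.03%. Without S7 replicate 3 there were 14 members higher and 1 lower in S7, where 4.46% of all genes tested were higher and 12.4% lower. Without S7 replicate 1 there were 8 members higher, where 511 of all genes tested were called higher.

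**Figure D3:**
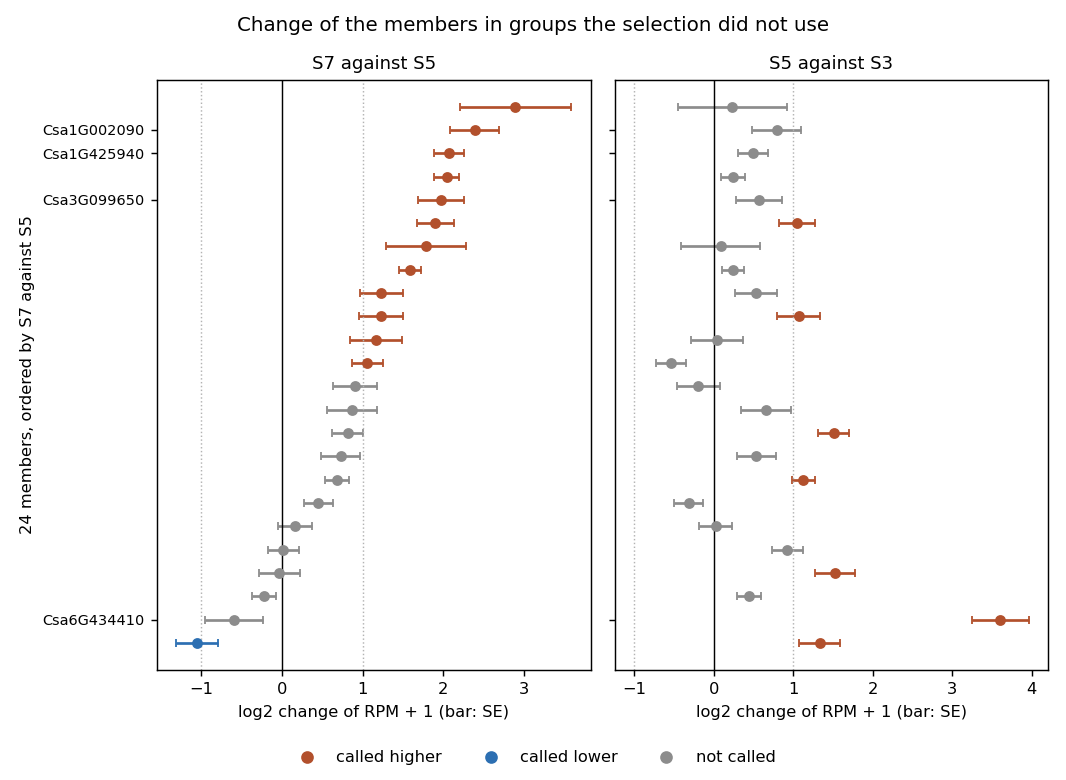
Fitted log2 change of RPM + 1 for each of the 24 members (rows, largest S7 against S5 change at the top) in S7 against S5 (left) and S5 against S3 (right), with bars of 1 SE, dotted lines at a 2-fold change and color for the call. In the left panel 12 members are called higher and 1 lower, and in the right panel 7 are called higher, with Csa6G434410 at the far right.

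Within the green yellow bud stage, S5 was set against S3. In this comparison 7 of the 24 were higher, 0 were lower and 17 were not called, where 2.45% of all genes tested were called higher and 2.03% lower. By limma 1 member had a negative change at an unadjusted p under 0.05, which also met the adjusted limit but stayed under 2-fold, and edgeR called 0 lower. In 16 members each S5 library was above each S3 library, and in 2 each was below, against 29.8% and 26.4% of all genes tested. The median log2 change was 0.53 over the members, 0.20 over the other flowering genes and 0.02 over all genes tested. Csa6G434410 changed most among the members, with 45.8, 47.9 and 50.8 RPM in S5 against 1.84, 6.77 and 1.98 RPM in S3 (log2 change 3.61, SE 0.36, limma adjusted p 1.2e-08). Of the members, 2 were called higher in both comparisons and 7 in neither. The matching shares over all genes tested were not computed, so these counts are descriptions. The comparisons share the S5 libraries, so a high S5 value makes one change larger and the other smaller. With a pseudocount of 5 the count of higher members in S5 was 1, where 0.994% of all genes tested were called higher. With a pseudocount of 0.1 the count was 11, where 792 of all genes tested were called higher. The median level of the members in these groups was 5.90 RPM in S5 and 3.13 RPM in S3.

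How far the members had come toward their open-flower level was set beside the other flowering genes. The median share of S9 over members was 5.39% in S3, 5.44% in S4, 7.78% in S5, 16.9% in S7 (21.8% without replicate 3) and 65.9% in S8. For the other 100 it was 4.11%, 4.48%, 5.37%, 8.84% and 19.4% in the same groups, the last of these being held down by the choice. In S7, 9 of 24 members and 6 of the 100 others had reached S9/4, and 3 members and 0 of the others had reached S9/2. In S7 against S5, 12 of the 24 members were called higher and 1 lower, against 20 and 0 of the 100 others by limma. At an unadjusted p under 0.05, 8 of the others had a negative change. With a pseudocount of 5, 10 members and 7 of the others were called higher, against 2.06% of all genes tested. Rescaled, the counts were 15 and 25, against 5.03%, and by edgeR they were 17 and 37, against 7.39%. By edgeR 1 of the others was lower, and without S7 replicate 3 limma called 22 of them higher and 1 lower. The sets also differ in level, which bears on the calls. Their median means were 15.1 RPM in S7 and 5.90 in S5 for members, and 5.14 and 2.44 RPM for the others. The difference between these counts was not tested, and members were chosen on a group next to S7 with the same S9 level in the denominator.

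**Figure D4:**
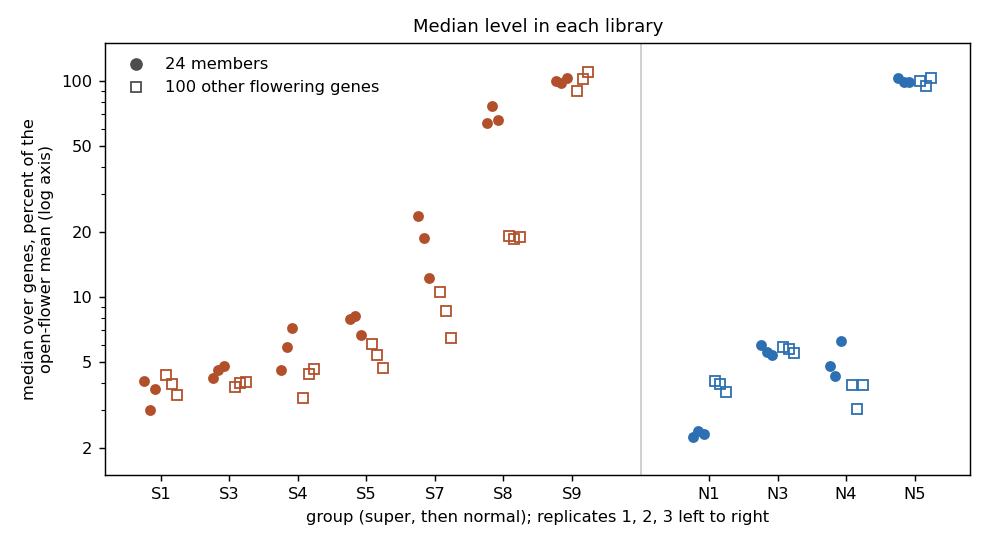
Median over the 24 members (filled circles) and over the 100 other flowering genes (open squares) in each library, as a percent of the gene's open-flower mean in the same course (S9 for super, N5 for normal; log axis), with replicates 1, 2 and 3 from left to right. The members' medians in S7 are 23.7%, 18.8% and 12.3%, and in S8 they are 63.4%, 76.4% and 66.0%.

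The spread between S7 libraries was set beside that of other genes. The coefficient of variation over the 3 libraries (SD as a percent of the mean) had a median of 47.9% over members in S7, against 14.6% over the 5687 other genes at the levels of the middle members (8.05 to 32.6 RPM). In S8 the medians were 13.1% over members and 5.39% over 5713 other genes at the middle members' levels. In S9 they were 10.9% and 7.32%. The members' median was also the higher in every other group, with 19.5% and 11.9% in S5. Each median over members takes in all 24, also those outside the middle levels. Members did not all order the libraries alike. Replicate 1 of S7 was the highest library in 14 of 24 members and the lowest in 7, and replicate 3 was the lowest in 16 and the highest in 6, whereas over all genes tested replicate 1 was the highest in 25.3% and the lowest in 45.8%, and replicate 3 was the lowest in 28.7% and the highest in 54.6%. The members together held 1012, 706 and 371 RPM in S7 replicates 1, 2 and 3. The other flowering genes had the same order, with 1339, 1204 and 1009 RPM in all and medians of 10.5%, 8.63% and 6.42% of S9. Across all genes tested, these libraries correlated with the N5 mean at 0.919, 0.910 and 0.881. With the N4 mean they correlated at 0.932, 0.936 and 0.932, which is not the same order. All were nearest to N3, at 0.955, 0.951 and 0.946. In S8, replicate 2 was the highest library in 17 of 24 members, against 34.7% of all genes tested, and it was the only S8 library nearer to N5 (0.934) than to N4 (0.928). These correlations are descriptions across genes, which include the members, and their part in the spread was not tested.

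On day 8, each S8 library was above each N4 library in all 24 members and below in 0, which the conditions nearly fix. Over all genes tested 34.3% were above and 33.1% below in this way. For the 100 other flowering genes the counts were 90 and 0, so this was not particular to the members. By group, the S8 mean was 2.95 times the N4 mean in the closest member, and the median ratio was 12.2. On day 7, which played no part in the choice, the S7 mean was above the N4 mean in 19 of 24 members (79.2%). It was above in 86 of the 100 other flowering genes and in 71.9% of all genes tested, a share near that of the members. Each S7 library was above each N4 library in 15 of the members and below in 4, against 54 and 5 of the 100 others and 49.4% and 15.9% of all genes tested. As N4 was used to choose both sets, these are descriptions.

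In the open flowers themselves most members stood lower in super ovaries. The S9 mean was below the N5 mean in 18 of 24 members. It was above the N5 mean in 25% of members and in 41.9% of all genes tested. In 14 members each S9 library was below each N5 library, while in 3 each S9 library was above each N5 library. Over all genes tested these shares were 30.5% and 19.7%, and over the 100 other flowering genes the counts were 29 and 21. The ratio of S9 to N5 had a median of 0.774 and quartiles of 0.601 and 1.03. Past 2-fold were 3 members, whose S9 was under N5/2, and 1 member, Csa6G434410, whose S9 was 4.37 times N5. For the other flowering genes the median ratio was 0.990, and it was above 1 in 47 of 100. No test is given, because both groups entered the choice and because a lower S9 makes the condition on S8 easier to meet.

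**Figure D5:**
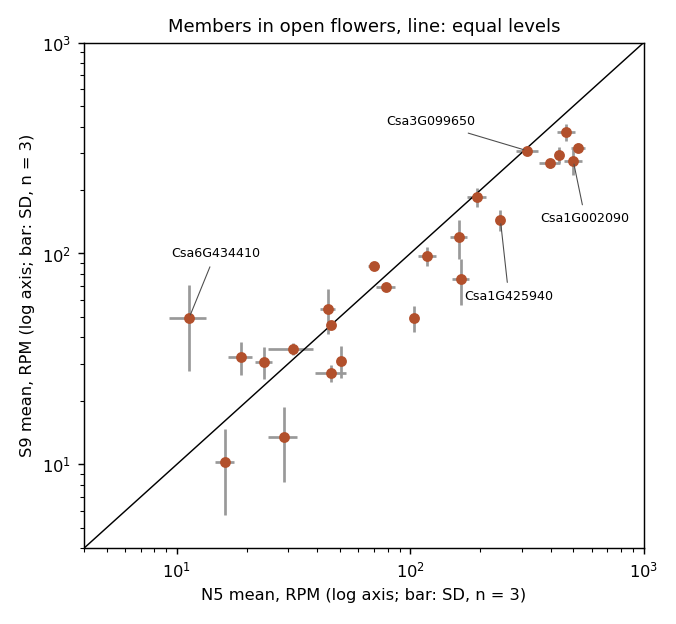
Mean RPM of each of the 24 members in S9 (vertical, log axis) and in N5 (horizontal, log axis), with bars of 1 SD over 3 libraries and a line of equal levels. Of the members, 18 lie under the line, and Csa6G434410 lies farthest above it. Of all genes tested, 41.9% had a higher mean in S9 than in N5.

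At the green bud the ratio of S1 to N1 means ran from 0.354 to 1.56 over the members, with a median of 0.945 and quartiles of 0.650 and 1.21. On day 5, with super buds closed and most normal flowers open, the S5 mean was below the N5 mean in 23 of 24 members. The median ratio was 0.0632, and Csa6G434410 was the 1 member whose S5 mean was above its N5 mean. Of the 100 other flowering genes 0 had S5 above N5, at a median ratio of 0.0527, so a low S5 was not particular to the members. The condition that normal buds be low does not touch S5, but N5 entered the choice and no test is given.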

How the data were processed

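The authors deposited a table of RPM values (reads scaled to a common library total) for 33 libraries, and no column belonged to another sample. TopHat and HTSeq are named in the submitters' processing notes. No version, reference build or gene annotation is stated in the sources used here. Columns summed to 999976 to 1000019 RPM, with no value under 0.04. The members and lists were chosen with earlier results of these data known. Gene lists by function could not be formed without names.

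Values were taken as log2(RPM + 1), and limma 3.58.1 (R 4.3.3) fitted the means of the 11 groups jointly with a mean-variance trend. Its two-sided p-values were adjusted by Benjamini-Hochberg over 18905 genes, those whose mean reached 1 RPM in some group. All 24 members pass this filter by their choice. A call needed an adjusted p under 0.05 and 2-fold. The code was tested on simulated data.

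Reads were recovered from the steps of the values as steps minus 1, on the assumption that 1 read had been added to each value. In every library 100% of values fell within 0.25 of a whole step. A separate test on low values passed in 30 libraries, which entered edgeR 4.0.16 (quasi-likelihood, TMM). It called 1394 genes higher and 1617 lower in S7 against S5. No replicate pair was alike within sampling noise (chi-square over its degrees of freedom 5.2 to 74.6), and 0 were identical.

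Named members were the 2 largest rises and 2 largest falls called in S7 against S5, at a mean of at least 10 RPM in whichever group was higher and without overlapping libraries. The lowest ratios of S9 to S8 took the place of missing falls.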

Additional observations from a re-analysis of the deposited data

How the results depend on the processing

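Of the 24 members, 12 were higher in S7 than in S5, and the count was 8 to 17 under the alternatives, the lowest with only these 2 groups in the fit or without S7 replicate 1, and the highest with edgeR. The 1 member lower in S7 was lost with a pseudocount of 5 (0) and after rescaling (0), and the count was 0 to 1 when single libraries were left out, lost without S5 replicate 1 or S7 replicate 2. The 7 members higher in S5 than in S3 became 11 when 0.1 was added before the log and 1 when 5 was added, and 9 with edgeR, and were 5 to 8 when single libraries were left out. The count of members lower in S5 than in S3 by limma and edgeR was 0 in the 14 alternatives run, with 1 at an unadjusted p under 0.05 by either tool. The cause was not tested. With a replicate block, S7 against S5 gave 12 members higher and 1 lower, and S5 against S3 gave 7 and 0. Same-numbered libraries of S7 and S5 had deviations that correlated at 0.019, 0.288 and 0.128, and 2 of 3 correlated best with their own number. For S5 and S3 the correlations were 0.024, 0.047 and -0.016, and 0 of 3 correlated best with their own number. The main fit did not take the numbers as pairs. The selection itself gave 64 genes with S8 at S9/4 or more, 10 with S8 at 0.75 of S9 or more, 77 with normal buds at N5/4 or less, and 31 after rescaling, which kept 22 of the 24. Without single libraries it gave 20 to 28 genes, and 15 members met it in all 21 such selections. The median S7 share of S9, 16.9% in the main run, was 14.6% to 21.8% in the alternatives, the highest without S7 replicate 3. Each of these moves was under the SD of the S7 library medians, 5.72 points. That limit comes from the same S7 libraries, so the runs that left 1 of them out are no separate check.

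Over all genes tested, S7 against S5 gave 615 higher and 1633 lower genes, against 390 and 624 with a pseudocount of 5, 950 and 879 rescaled, 843 and 2342 without S7 replicate 3 and 1394 and 1617 by edgeR. S5 against S3 gave 463 and 383, against 792 and 595 with a pseudocount of 0.1, 188 and 191 with a pseudocount of 5 and 807 and 659 by edgeR. With 1 read worth 0.0406 to 0.0593 RPM, values under 0.3 RPM in early buds rest on very few reads.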

Other observations

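The selection was also turned round, after the members' values were seen, to look for genes of the opposite kind. These reach 10 RPM in both open flowers, stay at or under S9/8 in all 6 groups of super buds and at or under N5/4 in N1, and stand at N5/2 or above in the normal yellow bud N4. Only 1 gene of the 23248 met it, against 24 in the direction reported. It is named because it is alone in that count. Csa5G217170 had 72.0, 101 and 103 RPM in S9 and 11.5, 8.5 and 11.95 RPM in S8, and in the normal course 47.0, 37.9 and 35.0 RPM in N5 and 29.4, 26.0 and 24.9 RPM in N4. The reversed selection sets limits on 6 super groups where the first sets them on 3 normal ones. With limits on S1 and S8 alone it also gave 1 gene. The difference between these counts was not tested.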
